A study of Mus musculus with 4 samples.

Results

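Immediate early response genes are switched on within minutes of a growth factor, stress or handling signal, before any new protein is needed, and their transcripts decay quickly. The 10 genes described here were taken by symbol from the deposited table of 43998 entries, and all 10 were found as entries of their own. They are Fos, Fosb, Jun, Junb and Jund, whose proteins pair to form the transcription factor AP-1, the transcription factor genes Egr1 and Atf3, the small regulators Ier2 and Ier3, and Dusp1, which encodes a phosphatase that switches off MAP kinases. Their values were compared between testis cells enriched for spermatogonia from control mice and from mice with impaired retinoic acid signalling in germ cells.

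C57BL/6 mice at postnatal day 4 supplied the RNA, with 2 libraries labelled control and 2 labelled germ cell RA signaling mutant. Neither the modified gene, the Cre line, the number of animals nor the alleles of the control mice are stated in the labels. Cells were enriched from testis with magnetic beads against CD90.2 (THY1), a surface protein of undifferentiated spermatogonia. The deposited values are RPKM, read numbers normalized to transcript length and library depth, with 1 combined value per genotype, so no spread between replicates, SD or p-value can be given for any difference. The low values stepped in whole reads, which placed the depth near 56.0 M control and 57.3 M mutant reads if no other scaling factor was applied. Germ cell transcripts were present in both genotypes (114 RPKM of Ddx4 and 353 RPKM of Dazl in mutant, from 88.6 and 274 in control), and Thy1 itself was at 7.11 control and 8.61 mutant RPKM. Transcripts of other testicular cells were present too, at levels given beside the results below. In control, 14 macrophage markers summed to 5339 RPKM and 20 germ cell identity genes to 1110 RPKM. The mutant sums were 1982 and 1597 RPKM.

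As background, growth factor receptors act on these promoters through RAS and the kinases RAF, MEK and ERK, which activate the ternary complex factors bound with SRF at serum response elements. Cyclic AMP and stress kinases act through CREB and ATF proteins at cyclic AMP response elements (CRE). The induced proteins then set the later response, and several of them, DUSP1 among them, end the signal. Dissociation of a tissue into single cells is also known to induce these genes.

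RefSeq promoter windows on GRCm38.p6, from 250 bases before to 50 bases after the transcript start, were at hand for 8 of the 10 genes, without Egr1 and Ier2. Those of Fos, the most abundant member, Ier3, 1 of the 2 members with the lowest mutant values relative to control, and Dusp1 and Atf3, the other windows with a CRE half-site, are shown because they differ in which of the searched motifs they hold. Capitals mark matches on either strand to TATAAA, the CRE half-site TGACGT or the GC box GGGCGG. The windows are chr12:85473640-85473939 (plus strand) for Fos, chr17:35821463-35821762 (plus strand) for Ier3, chr17:26508423-26508722 (minus strand) for Dusp1 and chr1:191183284-191183583 (minus strand) for Atf3, each written 5′ to 3′ on the gene's strand.
Fos: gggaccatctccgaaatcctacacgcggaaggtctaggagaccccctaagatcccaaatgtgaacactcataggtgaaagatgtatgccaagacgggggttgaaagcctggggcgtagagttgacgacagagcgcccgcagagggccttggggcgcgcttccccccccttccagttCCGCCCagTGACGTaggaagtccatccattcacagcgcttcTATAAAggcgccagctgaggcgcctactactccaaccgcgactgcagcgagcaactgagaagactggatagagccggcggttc
Ier3: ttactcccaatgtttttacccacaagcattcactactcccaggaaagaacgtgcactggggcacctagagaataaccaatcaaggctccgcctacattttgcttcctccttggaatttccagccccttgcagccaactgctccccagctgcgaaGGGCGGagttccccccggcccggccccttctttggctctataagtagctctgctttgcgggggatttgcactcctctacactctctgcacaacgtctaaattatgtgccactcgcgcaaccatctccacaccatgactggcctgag
Dusp1: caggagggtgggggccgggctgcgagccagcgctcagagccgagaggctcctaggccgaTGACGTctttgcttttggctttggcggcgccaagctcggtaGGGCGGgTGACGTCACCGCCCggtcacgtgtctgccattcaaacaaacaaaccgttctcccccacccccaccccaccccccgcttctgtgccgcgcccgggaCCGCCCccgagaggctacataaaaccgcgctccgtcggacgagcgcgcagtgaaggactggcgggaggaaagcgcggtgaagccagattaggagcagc
Atf3: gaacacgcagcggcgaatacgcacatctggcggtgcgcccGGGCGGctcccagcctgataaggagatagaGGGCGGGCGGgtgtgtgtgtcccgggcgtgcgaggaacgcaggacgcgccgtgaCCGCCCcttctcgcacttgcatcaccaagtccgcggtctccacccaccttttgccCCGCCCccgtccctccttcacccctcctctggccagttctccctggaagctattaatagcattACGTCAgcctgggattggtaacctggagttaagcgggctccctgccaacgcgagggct

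A CRE half-site was found in 3 of the 8 member windows, those of Fos, Dusp1 and Atf3, and in 7.51% of all 32851 windows of the same length. In Fos it began at position -66 and was followed by TATAAA at -33, both on the gene's strand, where position 0 is the transcript start. The Dusp1 window held a full palindromic CRE (TGACGTCA) from -143 to -136, a sequence found in 1.79% of all windows. It consists of 2 overlapping half-sites and lies between GC boxes at -150 and -135, and another half-site began at -191. In Atf3 the half-site lay on the opposite strand, from -8 to -3. TATAAA was found in Fos and in Junb, against 13.6% of all windows, and a GC box in 6 of the 8, against 35.7%. In Junb the TATAAA match spans positions 0 to 5, at the RefSeq start itself. The EGR motif GCGNGGGCG was found in Fosb alone (5.55% of all windows), where it overlaps a GC box. No member window held an exact match to TGANTCA, a short form of the AP-1 site (7.81% of all windows), or to CCGGAA, an ETS core (14.9%). None held the CArG box bound by SRF (1.63%) or a direct repeat of the retinoic acid receptor half-site with a spacing of 1, 2 or 5 bases (0.588%). These matches describe the letters in these windows only. Variant forms of the AP-1, ETS and CArG sites were not searched, nor was sequence outside the windows. The Jund window is set on a start at 70697739, the start of the deposited interval, while GENCODE M21 starts the gene at 70698949, further downstream, so the window does not reach that start. On the minus strand, the GENCODE M21 spans of Atf3 and Dusp1 begin at 191218039 and 26562128, upstream of their windows. Positions given for these genes count from the RefSeq start only. The span of Junb, also on the minus strand, begins at 84978718, downstream of the start used, so its TATAAA match lies upstream of that start. The CRE half-site was added to the search after the windows had been read.

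**Figure D1:**
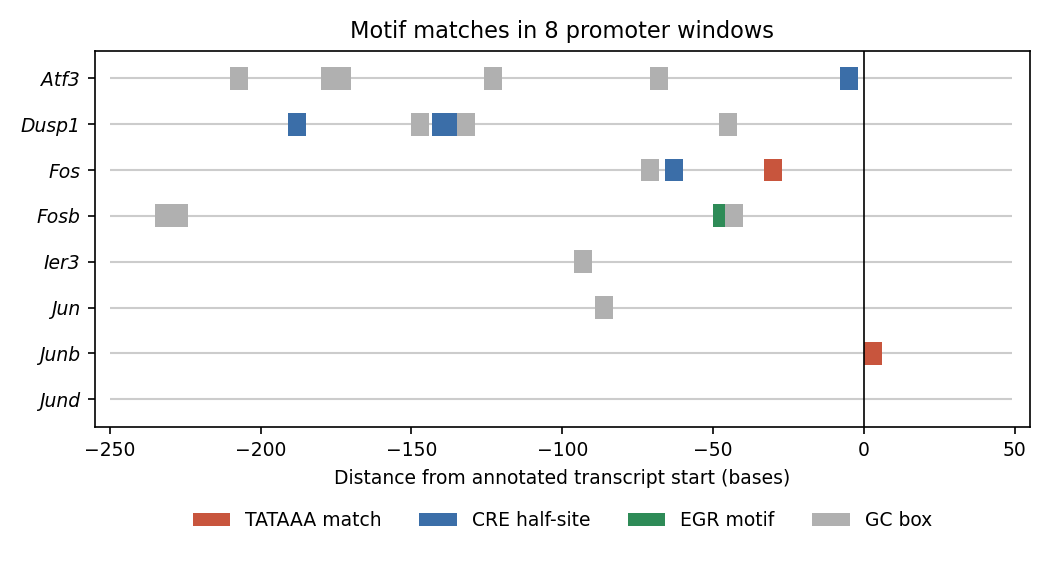
Matches to 4 motifs in the promoter windows of 8 members, drawn by distance from the annotated (RefSeq) transcript start in bases. Coloured blocks mark a match to TATAAA, a CRE half-site, an EGR motif or a GC box on either strand. CRE half-sites appear in Fos, Dusp1 and Atf3, and the Jund window holds none of the 4 motifs.

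In both genotypes the members were well expressed. Control values ran from 25.7 RPKM for Fosb to 347 RPKM for Fos, and mutant values from 18.3 RPKM for Ier3 to 211 RPKM for Fos, against a median control value of 13.7 RPKM over 12183 protein-coding genes compared. Fos was exceeded by 1.22% of protein-coding genes in control and 1.82% in mutant. Of the 10 members, 8 had lower mutant than control values and 2, Ier2 and Ier3, were lower by 2-fold or more. Fosb and Atf3 had nearly equal values, and no member was 2-fold higher. All 2-fold calls and log2 differences use log2((mutant RPKM + 1) / (control RPKM + 1)), which understates differences of genes with low values. A 2-fold lower mutant value was seen for 4.35% of the 16473 genes that reached 1 RPKM in at least 1 genotype, and for 4.05% of the protein-coding ones. A 2-fold higher value was seen for 4.4% and 1.31%. The share below 0 by any amount was 49.6% of all genes and 55.7% of protein-coding genes. The median log2 difference of the members was -0.58, beside 0.005 for all genes and -0.06 for protein-coding genes. Without replicates these counts are a description of 2 combined values.

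**Figure D2:**
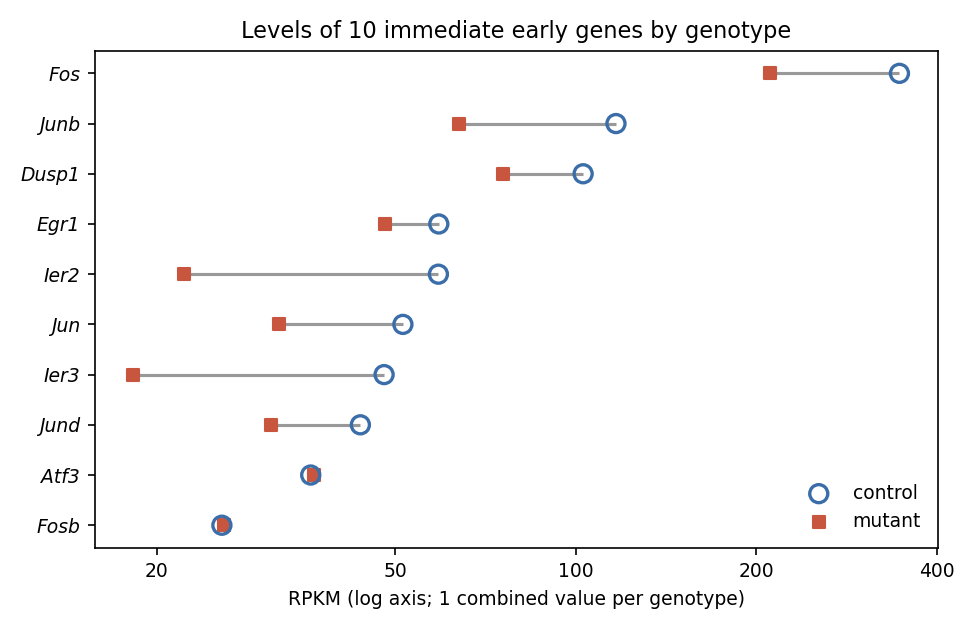
RPKM of the 10 members on a log axis, with an open circle for the combined control value and a square for the combined mutant value. Members are ordered by control level from Fosb at 25.7 RPKM to Fos at 347 RPKM. The longest gaps belong to Ier2 and Ier3, and the symbols of Fosb and Atf3 overlap.

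Fos, on chromosome 12 from 85473890 to 85477273 in GRCm38, encodes an AP-1 subunit that needs a JUN partner to bind DNA. It was at 347 control and 211 mutant RPKM, 1.65-fold lower in mutant, with a log2 difference of -0.72. At the depth above, these values stood for about 37064 control and 22903 mutant reads, and the mutant-to-control ratio of 0.607 had a 95% interval of 0.597 to 0.617 from counting error alone. All intervals here are exact binomial intervals on approximate reads (RPKM times the length of the longest coding transcript less an offset of 200 nt in control and 210 nt in mutant, over the worth of 1 read), so they cover neither animals nor libraries. Fosb, its close relative on chromosome 7 from 19302721 to 19310045, was at 25.7 control and 25.9 mutant RPKM (log2 difference 0.01, ratio 1.01, counting interval 0.971 to 1.05). The control and mutant values of Fosb thus lay within counting error, while those of Fos did not. The ratio of Fos to Fosb, which no rescaling of a whole column can alter, was 13.5 in control and 8.12 in mutant. Fos made up 90.8% of the summed RPKM of the 4 FOS family genes in control and 85.7% in mutant, and Fosb 6.72% and 10.6%. The remaining relatives were low, with Fosl2 at 8.67 and 8.45 RPKM and Fosl1 at 0.893 and 0.792 RPKM.

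The 3 JUN genes all had lower mutant values. Junb, whose product often acts as a weaker activator than JUN (chromosome 8, 84976909 to 84978748), was at 117 control and 63.8 mutant RPKM, 1.83-fold lower (log2 difference -0.86, counting interval of the ratio 0.529 to 0.564). Among the AP-1 genes it was the one nearest to the 2-fold mark. Jun, the partner that gives AP-1 its strongest activity, was at 51.5 and 32.0 RPKM, 1.61-fold lower (log2 difference -0.67). Jund, which is expressed in many resting cells and is the least inducible of the family, was at 43.7 and 31.0 RPKM, 1.41-fold lower (log2 difference -0.48). The order of the JUN genes by level was the same in both genotypes, although Jun and Jund came close in mutant. Summed over the family, RPKM came to 212 for control and 127 for mutant, with a ratio of 0.598, beside 0.643 for the FOS family. Junb held 55.1% of the JUN family sum in control and 50.3% in mutant, and Jund 20.6% and 24.4%. The ratio of Fos to Jun differed little between genotypes, at 6.73 in control and 6.58 in mutant.

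Antisense entries limit the reading of Jun and Jund. Gm11175, annotated antisense and listed over the same interval as Jund (chromosome 8, 70697739 to 70700616), was at 107 control and 75.8 mutant RPKM, and its ratio of 0.711 was close to the 0.708 of Jund. The entry that pools Junos with another symbol, antisense to Jun, was at 18.6 and 10.9 RPKM, a ratio of 0.582 beside 0.622 for Jun. Whether reads were counted by strand is not stated here, and without strand the reads of such partners cannot be told apart. The interval deposited for Jun, chromosome 4 from 95049034 to 95167318, is shared by 4 entries, while GENCODE M21 places the gene itself from 95049034 to 95052222 on the minus strand.

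**Figure D3:**
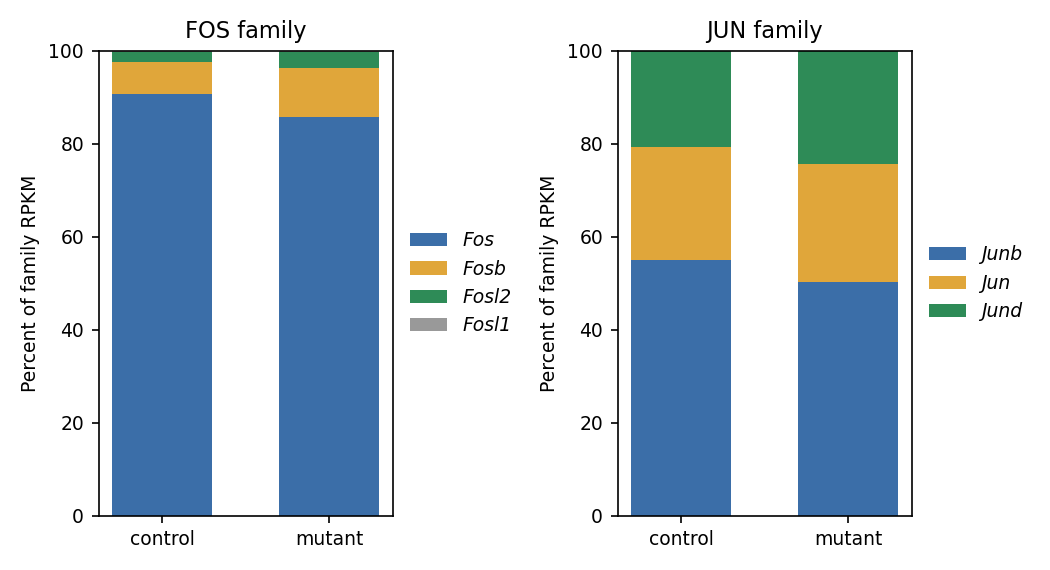
Share of each gene in the summed RPKM of the FOS family (left) and the JUN family (right) in the combined control and mutant values. Fos takes 90.8% and 85.7% of its family, and Junb takes 55.1% and 50.3%. Fosl1, under 1% of the FOS family in both genotypes, is barely visible.

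Ier2 and Ier3 differed most. Ier2, a small intronless gene whose product acts in transcription and cell motility, lies on chromosome 8 from 84661331 to 84662852. It was at 59.0 control and 22.2 mutant RPKM, 2.66-fold lower (log2 difference -1.37). Ier3, which encodes a regulator of ERK signalling and cell survival, lies on chromosome 17 from 35821684 to 35822923 and was at 47.9 and 18.3 RPKM, 2.62-fold lower (log2 difference -1.34). About 4370 control and 1670 mutant reads stood behind Ier2, with a counting interval of 0.356 to 0.398 on the ratio, and about 2498 and 963 reads behind Ier3, with 0.353 to 0.411. The counting intervals of the pair overlap each other and lie below those of the other 8 members. A total of 0.689% of protein-coding genes had a log2 difference below that of Ier2, and 0.804% one below that of Ier3. By level among the members Ier2 held rank 5 in control and rank 9 in mutant, and Ier3 ranks 7 and 10. The ratio of Ier2 to Ier3 was 1.23 in control and 1.22 in mutant, whereas that of Ier2 to Egr1 was 0.999 and 0.462.

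Egr1, the zinc finger factor often used as a readout of ERK activity (chromosome 18, 34859823 to 34864984), was at 59.1 control and 48.0 mutant RPKM (log2 difference -0.29, ratio 0.813, counting interval 0.793 to 0.833). Egr1 and Ier2 were thus level in control and apart in mutant. Dusp1 (chromosome 17, 26505590 to 26508519) was at 103 and 75.7 RPKM (log2 difference -0.44, ratio 0.735, counting interval 0.714 to 0.757), and it stood below Junb in control and above it in mutant. Atf3, a stress-induced factor of the ATF family (chromosome 1, 191170296 to 191218039), was at 36.1 and 36.5 RPKM (log2 difference 0.02, ratio 1.01, counting interval 0.966 to 1.06). Its values, like those of Fosb, lay within counting error. The 3 genes whose windows hold a CRE half-site spanned ratios of 0.607 for Fos, 0.735 for Dusp1 and 1.01 for Atf3.

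**Figure D4:**
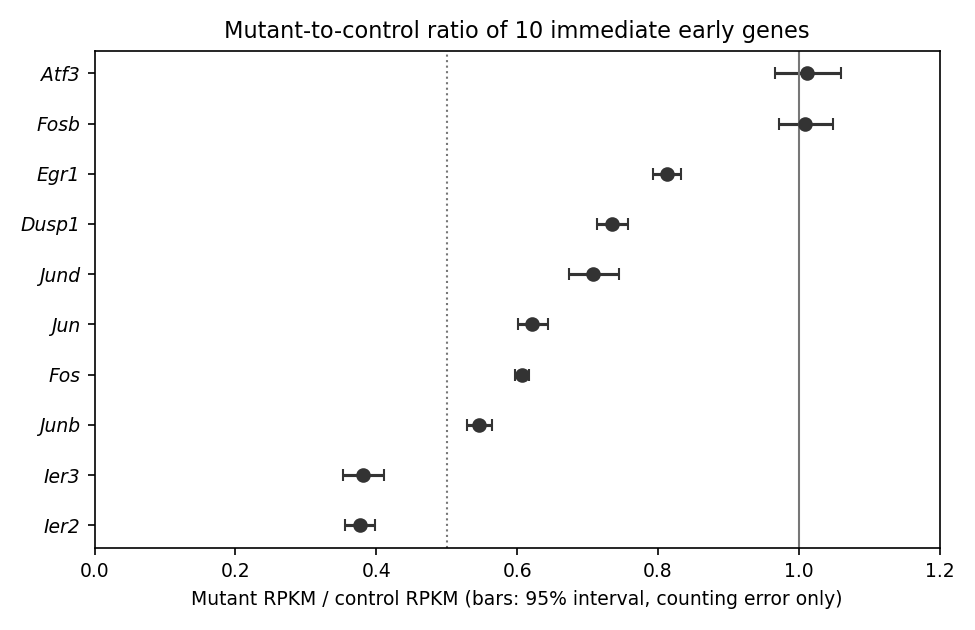
Ratio of mutant to control RPKM for each member, with bars for the 95% interval from counting error alone. The solid line marks equal values and the dotted line a 2-fold lower mutant value. Ier2 (0.376) and Ier3 (0.381) lie left of the dotted line, and Fosb and Atf3 lie at 1.01.

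Rescaling the mutant column so that 20 germ cell identity genes had a median difference of 0 raised the number of members at least 2-fold lower from 2 to 7 and put all 10 below 0, Fosb at -0.63 and Atf3 at -0.64. That rescaling moved the median of all genes to -0.56 and the share of genes at least 2-fold lower to 19.4%. With both columns scaled to the same sum, with quantile normalization and with a length and GC trend removed, 8 members stayed below 0 and Ier2 and Ier3 past 2-fold. In that order, the median of all genes was 0.14, 0.0006 and 0.09, and 2.92%, 4.29% and 3.07% of genes were at least 2-fold lower. The share of all genes below 0 was not computed under any of the 4 scalings.

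As transcripts most members were short, and all were rich in G and C and poor in introns. Egr1 (4484 nt), Fosb (3782 nt) and Jun (3189 nt) were longer than the protein-coding median given next. Their median length in GENCODE M21 was 1987 nt beside 3078 nt for protein-coding genes compared, and all 10 exceeded the protein-coding median GC content of 50.2%, from 51.9% in Fos to 67.1% in Jund. Jun, Junb, Jund and Ier2 have 1 exon, as do 3.09% of protein-coding genes, whose median is 9 exons. TATTTAT, the core of AU-rich elements that mark transcripts for rapid decay, was found in the 3′ untranslated region of 7 members, against 29.2% of protein-coding genes. Ier3 held 4 copies and Dusp1 3, while Egr1, Junb and Ier2 held none, so the 2 members past 2-fold differ in this feature. A fit of the log2 difference on length and GC content over protein-coding genes gave values between -0.28 and -0.10 for the members. With that trend removed Ier2 was at -1.09, Ier3 at -1.06, Junb at -0.61, Fos at -0.52, Jun at -0.51, Jund at -0.25, Dusp1 at -0.21, Egr1 at -0.20, Fosb at 0.14 and Atf3 at 0.22.

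A wider list of 46 other immediate early genes was read next, 43 of which reached 1 RPKM in at least 1 genotype. Of these, 37 were below 0 and 5 were at least 2-fold lower, beside 49.6% and 4.35% of all genes. Among protein-coding genes the shares were 55.7% and 4.05%. None was 2-fold higher, and the median log2 difference was -0.35. The number below 0 was 30 with both columns scaled to the same sum, 31 of 41 with the length and GC trend removed and 43 with the germ cell rescaling. In that order, the median of all genes was 0.14, 0.09 and -0.56. The share of all genes below 0 was not computed under these scalings. The 5 at least 2-fold lower were Klf2, Rhob, Cebpd, Cebpb and Ctgf. Cebpb (-0.96) and Ctgf (-0.95) no longer reached 2-fold with both columns scaled to the same sum, and Cebpb (-0.85) did not with the length and GC trend removed, where Ctgf had no annotated length under that symbol. Klf2, a zinc finger factor of endothelial and immune cells, was at 18.8 control and 6.92 mutant RPKM (log2 difference -1.32). Rhob, an inducible small GTPase, was at 97.4 and 41.1 RPKM (-1.22). Cebpd and Cebpb, leucine zipper factors of inflammatory and myeloid gene expression, had control values of 10.9 and 14.4 RPKM and mutant values of 3.96 and 6.18 RPKM (-1.26 and -1.10). Ctgf, a secreted matrix protein gene, was at 13.6 and 5.86 RPKM (-1.09). Dusp6, the cytoplasmic ERK phosphatase, had the highest mean level of the list at 115 and 63.3 RPKM (-0.85), and Zfp36, which encodes the AU-rich element decay factor tristetraprolin, was at 107 and 59.4 RPKM (-0.83).

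Members of the same families again differed among themselves. Of the EGR genes, Egr2 was at 30.8 control and 24.1 mutant RPKM, and Egr4 at 19.6 and 26.1 RPKM. Nr4a1, an orphan nuclear receptor induced with Fos, was at 24.4 and 20.2 RPKM, and Myc at 5.21 and 2.89 RPKM. The gene with the highest difference of the list was Irf1, an interferon-induced factor, at 42.4 and 62.3 RPKM (0.54). The direction of Egr4 and Irf1 turned with the germ cell rescaling (-0.26 and -0.12), as did those of the other 4 genes above 0. The other immediate early genes named here were chosen by size or level within the list, except Zfp36, Egr2, Egr4, Nr4a1, Myc and Irf1, which were picked after their values were seen.

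Genes of the pathway that leads to these promoters were nearly even. Of 20 measured genes of ERK, SRF and CREB signalling, 10 were below 0 and 10 above, none was past 2-fold in either direction, and the median log2 difference was -0.05, which turned to 0.11 with both columns scaled to the same sum and 0.01 without the trend in length and GC content, and was -0.71 with the germ cell rescaling, where Elk3 and Rps6ka1 passed 2-fold. Nras, a RAS GTPase gene and the highest of these 20 in mean level, was at 124 control and 104 mutant RPKM. Srf was at 17.0 control and 19.8 mutant RPKM, and Creb1 at 29.6 and 39.8 RPKM. Elk1 (-0.11) and Elk4 (0.18), in entries pooled with other symbols, were left out of these 20. Of 9 genes of the JNK arm and further JUN and FOS partners, 6 were below 0 and 3 above. None was past 2-fold, and the median was -0.18. Left out of these 9 were Map2k7 (0.17), Atf2 (0.74) and Atf7 (0.21), whose pooled entries were all above 0. The counts and median thus hold only for genes in entries of their own. The median was -0.06 with equal sums, -0.24 with quantile normalization (Batf 2-fold lower), -0.69 with the germ cell rescaling (Batf and Jdp2) and 0.04 without the trend in length and GC content. Atf4 had the highest mean level there (69.8 and 71.4 RPKM), and Batf, an AP-1 partner of lymphoid and myeloid cells, the lowest difference at 7.25 and 3.19 RPKM (-0.98). The 8 genes of mRNA decay and of EGR feedback split evenly about 0 with a median of 0.07 and none past 2-fold, and Zfp36 had their highest mean level. With the germ cell rescaling their median turned to -0.58 and Zfp36 (-1.50), Zfp36l1 (-1.19) and Zfp36l2 (-1.11) passed 2-fold, and with equal sums the median was 0.22. Srf, Creb1 and Batf were named after their values were seen.

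**Figure D5:**
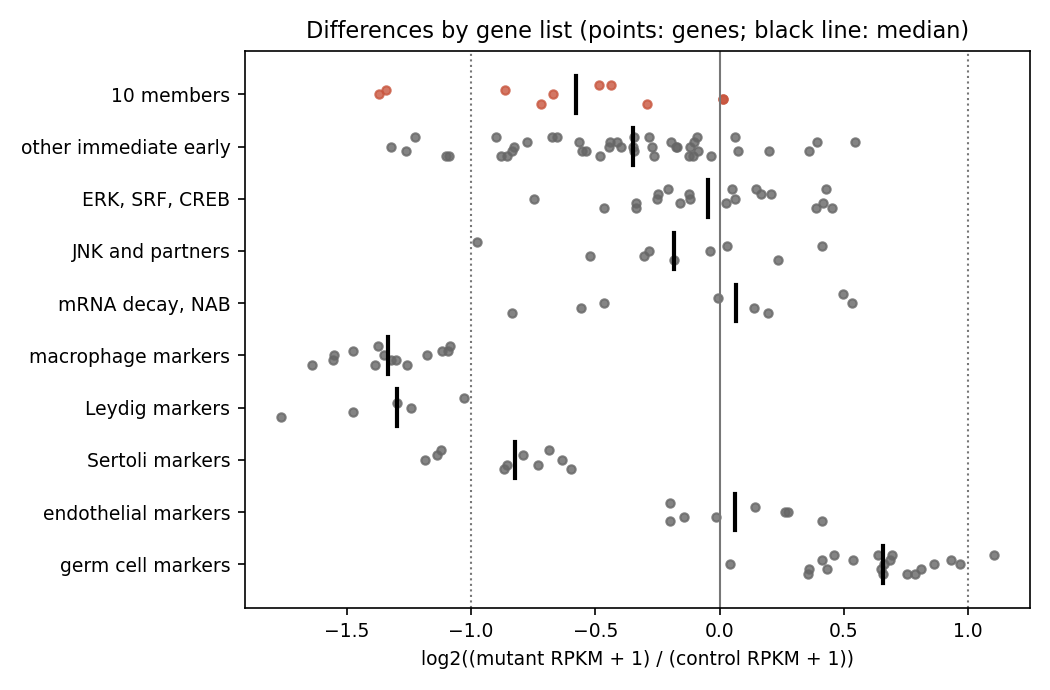
Log2 difference of each gene measured in an entry of its own, on the log2(RPKM + 1) scale. Shown are the members, 4 related gene lists and 5 lists of cell markers, with a black line at each median. Dotted lines mark 2-fold. The member median lies at -0.58, the other immediate early genes at -0.35, macrophage markers at -1.34 and germ cell markers at 0.66.

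Markers of several somatic cell types were lower in the same mutant values, and in such bulk RNA fewer cells of a type and less RNA per cell cannot be told apart. As deposited, all 14 measured macrophage markers were at least 2-fold lower, with a summed level of 5339 control and 1982 mutant RPKM, a ratio of 0.371 beside 0.376 for Ier2 and 0.381 for Ier3. All 6 mast cell markers were at least 2-fold lower (summed 218 and 18.2 RPKM), as were all 5 measured Leydig cell markers (482 and 166 RPKM, ratio 0.345). Of 10 Sertoli cell markers 3 were 2-fold lower (315 and 148 RPKM, ratio 0.470), of 6 fibroblast markers 2 (195 and 110 RPKM) and of 4 peritubular myoid markers 1 (86.3 and 37.1 RPKM). Markers in entries that pool several symbols are not in these sums. They are Col3a1 (1281 control and 504 mutant RPKM) and Pdgfra (24.8 and 14.8 RPKM) of the fibroblast list. Of the Leydig list they are Cyp11a1 (129 and 39.0 RPKM) and Insl3 (154 and 43.2 RPKM). The 5 erythroid markers summed to 416 and 76.5 RPKM, with 4 of them 2-fold lower. Endothelial markers summed to 30.1 and 30.9 RPKM, with none of 8 past 2-fold. With equal sums the number at least 2-fold lower was 11 of 14 macrophage, 4 of 5 Leydig, 1 of 10 Sertoli and 0 of 6 fibroblast markers; without the trend in length and GC content it was 12, 4, 0 and 1. With quantile normalization it was 12 macrophage and 4 Leydig markers. With the germ cell rescaling 8 Sertoli, 5 fibroblast and 3 myoid markers were at least 2-fold lower, and none of the mast cell or erythroid counts differed under any of these scalings. None of the measured markers of these types was listed at 0 in either genotype. Germ cell identity genes were above 0 for all 20, with 1, Zbtb16, at least 2-fold higher and sums of 1110 and 1597 RPKM. With the germ cell rescaling 10 of them were below 0, which follows from setting their median to 0. Of 10 markers of undifferentiated spermatogonia, 5 were below 0 and 5 above, Gfra1 (-1.28) and Sall4 (-1.23) were at least 2-fold lower and Zbtb16 (1.11) 2-fold higher, with a median of 0.005 and a ratio of sums of 0.849. With the germ cell rescaling that median was -0.61 and 4 of the 10 were 2-fold lower. The 10 members summed to 889 control and 564 mutant RPKM, a ratio of 0.634. Beside it stood 0.565 for the 6 fibroblast markers in entries of their own. The ratio was 1.03 for the endothelial markers and 1.44 for the germ cell identity genes. The part of these cells in the values of the immediate early genes was not tested.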

How the data were processed

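RNA of THY1-enriched testis cells was sequenced in 4 libraries, 2 per genotype. Per the labels' protocols, RNA was extracted with Trizol and libraries followed standard Illumina procedures. The submitters' processing notes name TopHat2 2.0.11 and GRCm38, but no counting program or annotation is given in the sources used here. The deposited values are RPKM, per the file headers, with 1 column combining both libraries of a genotype. The planned limma fit was for separate libraries and could not be run. Starts count from 0 in the table, and 1 was added.

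Of repeated symbols the entry highest in mean was taken. The 981 entries that pool several symbols were left out of counts. Genes needed an RPKM of 1 in either genotype (16473 genes, 15464 matched to GENCODE M21 by symbol), and a pseudocount of 1 was added. Depth was read from genes with 1 annotated transcript: among values of at most 10 reads, 85.4% of 1490 in control and 90.8% of 1477 in mutant were whole to within 0.1 read. The members and lists were chosen with earlier results of these data known. The text names all members and, from each of the 4 related gene lists, those past 2-fold and the one highest in mean level, while cell markers are given as counts and sums; exceptions are stated, and 1 gene of a list is not reported here. Motifs were searched on both strands. Python 3.11.15, pandas 2.3.3 and scipy 1.17.1 were used, and the steps were tested on simulated data. Alternatives were other pseudocounts, filters, scalings and ways of treating repeated or pooled entries.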

Additional observations from a re-analysis of the deposited data

How the results depend on the processing

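The members' differences, counts and median, and the median and 2-fold lower count of the other immediate early genes, were recomputed under 10 alternatives, and the other lists under the 4 scalings only. Sums, counting intervals and motif matches were not recomputed. The median log2 difference of the members was -0.42 with both columns scaled to the same sum, -0.48 with quantile normalization, -1.23 with the germ cell rescaling and -0.38 without the trend in length and GC content. That of the other immediate early genes was -0.20 with equal sums, -0.98 with the germ cell rescaling and -0.22 with the trend removed. Other immediate early genes at least 2-fold lower numbered 3 with equal sums, 3 with the trend removed (41 genes with a matched symbol instead of 43) and 20 with the germ cell rescaling, against 5 as reported, and members at least 2-fold lower numbered 7 after that rescaling. Ier2 and Ier3 were at least 2-fold lower in all 11 settings, with ranges of -2.01 to -1.09 and -1.98 to -1.06. Over all genes 716 were lower and 724 higher by 2-fold as reported, 1107 and 1417 with a pseudocount of 0.1, 481 and 992 with equal sums, 475 and 871 with the trend removed, and 3198 and 376 with the germ cell rescaling. No paired analysis was possible because each genotype has 1 combined column, and for the same reason no library could be left out.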
